A study of Ovis aries with 40 samples.

Results

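The low muscling progeny of sire 17 were compared with the low muscling progeny of sires 16 and 5, using gene expression in longissimus muscle (LM, the loin muscle, labelled longissimus dorsi). The series holds 40 Poll Dorset sheep, 1 array per animal, bred from 6 industry sires at the extremes of muscling, judged by the depth of the eye muscle of the loin and expressed as an estimated breeding value (EBV). The 21 animals labelled low came from sire 17 (5 progeny, numbered 39, 71, 79, 85 and 88), sire 16 (8 progeny) and sire 5 (8 progeny). The 19 animals labelled high came from sires 11 (8 progeny), 2 (7 progeny) and 7 (4 progeny). All animals were raised to Australian industry standards, no experimental treatment is given, and they were 78 weeks old. The rule for the members uses the sire number and the EBV label and no measured value. The question is how far the progeny of 1 sire differ from other progeny of the same muscling class. Sire 17 is 1 family, and the labels give no sex, dam or array batch, so a family difference and an unrecorded batch cannot be told apart. The p-values measure the spread between animals within families.

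Progeny that share a sire share part of their alleles, and differences between sire families are one way in which inherited variation in a trait shows. In mature muscle most RNA encodes the contractile apparatus, the enzymes of energy supply and the ribosome. Contractile proteins set the fibre type, the respiratory chain of the mitochondria sets oxidative capacity, and ribosomal proteins form the machinery that makes protein. RNA of a whole muscle sample also comes from fibroblasts, vessels, fat cells and leukocytes.

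Sheep RNA was hybridised to an array designed for cattle, and each value is a MAS5 signal, the brightness of a probe set scaled to the same mean on every array. Of 9155 genes with a probe set, 6360 were detected, that is, had a mean signal over the 40 arrays of at least 61.8, the median of all probe sets. The tissue was as labelled: CKM, ACTA1, TNNT3, TNNC2, MYL1, MYH1, MB and ENO3, all abundant in skeletal muscle, had mean signals of 18800 or more in sire 17, and none was called different from sires 16 and 5. Median signal per array was 60.1 to 64.2 in sire 17 and 56.1 to 67 in the 16 other low arrays. The ratio of the 3' to the 5' probe set of GAPDH, a measure of RNA integrity, was 0.957 to 1.32 against 1.05 to 1.29. Within sire 17 it was 1.32, 1.32 and 1.21 in progeny 71, 85 and 88, the first pair being the highest of all 21 arrays, and 1.1 and 0.957 in progeny 39 and 79, and its part in the results was not tested. No 2 arrays held identical values.

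The sire 17 arrays stood apart from the other 16 and were also not alike among themselves. On the first principal component, which held 13.1% of the variance among the 21 arrays, progeny 71, 85 and 88 had scores of 39.6, 19.1 and 19.1, above the range of the other families (-14.5 to 10.2), while progeny 39 (-2.5) and 79 (5.4) lay inside it. On the second component (10.7%) progeny 39, 79, 85 and 88 scored 20.9, 12.3, 16.4 and 16.1, above the highest other score of 8.3, and progeny 71 scored 0.1. Single arrays of the other families also lay far out, with scores of -31.7 and -25.7 in sire 5 progeny 32 and 94. Median Pearson r to the arrays of sires 16 and 5 was 0.924 to 0.941 in sire 17. It was 0.932 and 0.94 in sire 5 progeny 32 and 94, 0.935 in sire 16 progeny 65, and up to 0.958 in the others.

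A probe set annotated to CSN2, the gene of the milk protein beta-casein, divided the sire 17 arrays in the same way. Its signal was 3249.2, 3513.7 and 3473.7 in progeny 71, 85 and 88, but 23764.7 and 21258.6 in progeny 39 and 79. The 16 other low arrays ranged from 7254.1 to 31303.3, whereas all 8 high muscling arrays of sire 11 lay between 2019.5 and 4211.3. What this probe set detects in muscle is not known here, because the 2 other probe sets annotated to CSN2 were below the detection level (mean signals of 29.7 and 24.9 in sire 17). Progeny 71, 85 and 88 also resembled sire 11 across all 6360 genes, with a median Pearson r to its arrays of 0.947, 0.954 and 0.954, above their 0.924 to 0.941 to any other family. For progeny 39 and 79 sire 11 gave the lowest value (0.922 and 0.935). What sets these 3 arrays apart was not tested. Since 3 of 5 arrays stood apart, the counts of called genes, and the lists with 4 or more called members, are also given without progeny 71, 85 and 88, and without progeny 39 and 79, 2 subsets of the sire 17 animals chosen after these values were seen.

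**Figure D1:**
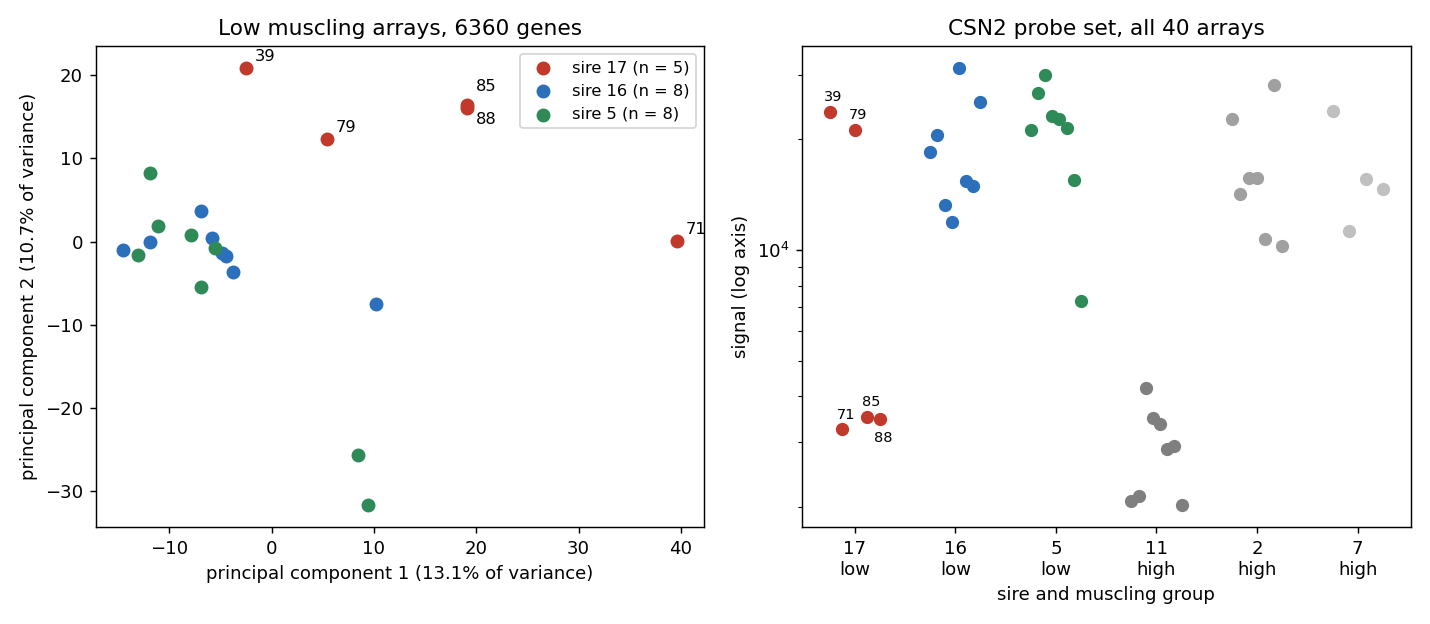
Scores of the 21 low muscling arrays on the first 2 principal components (left; one point per animal, sire 17 progeny numbered) and the signal of the CSN2 probe set on a log axis in all 40 arrays by sire (right). Progeny 71, 85 and 88 have the highest first component scores and CSN2 signals of 3249.2 to 3513.7, near those of sire 11.

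XIST, the RNA that coats the inactive X chromosome in females, fell into 2 separate levels in each low family, 528 to 929 and 6.9 to 80. It was 6.9 and 56.8 in progeny 39 and 71, and 929, 694 and 597.6 in progeny 79, 85 and 88. The higher level was thus present in 3 of 5 sire 17 arrays, and in 6 of the 16 others. With the log2 signal of XIST as a covariate, 210 genes were higher and 534 lower in sire 17, near the counts without it given below.

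Spiked controls are probe sets for bacterial and phage RNAs that are added to a sample in fixed amounts and so carry no biology of the animal. Most of them differed little between the groups. Over the 45 control probe sets the log2 difference (sire 17 minus the 16 others) ranged from -0.40 to 0.25 with a median of -0.03. The 18 controls added at hybridisation had a median of -0.005, and their mean per array was 11.154 to 11.471 in sire 17 against 11.089 to 11.368 (log2 signal, two-sided exact permutation p = 0.703). The other 27 had a mean per array of 6.891 to 7.339 against 6.889 to 7.373 (exact permutation p = 0.353), and whether these RNAs were added is not given in the sources used here. Within sire 17 the hybridisation mean was 11.154, 11.198 and 11.166 in progeny 71, 85 and 88, and 11.471 and 11.271 in progeny 39 and 79. The mean of the other spiked controls was 7.339, 7.298 and 7.003 in the former, and 6.905 and 6.891 in the latter. Both means thus divided the sire 17 arrays as the CSN2 probe set did, and the part of this in the results was not tested. Of the 45, 7 had an exact permutation p under 0.05 and 2 kept it after Benjamini-Hochberg adjustment over the 45. These were a bioD probe set, higher by 0.18, and a phe probe set, lower by 0.32 (both adjusted p = 0.0475 in the exact test). Both calls were lost without progeny 71, without 85 or without 88, and when each array was centred on its median. The other phe probe sets, none of them called, were at -0.31, -0.40, -0.16, -0.10 and -0.14. With the mean of the hybridisation controls as a covariate, 774 of the 783 genes called below were called again. That mean differed by only 0.02 between the groups, so the covariate could take away little of a group difference. The other spiked controls were not used as a covariate.

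**Figure D2:**
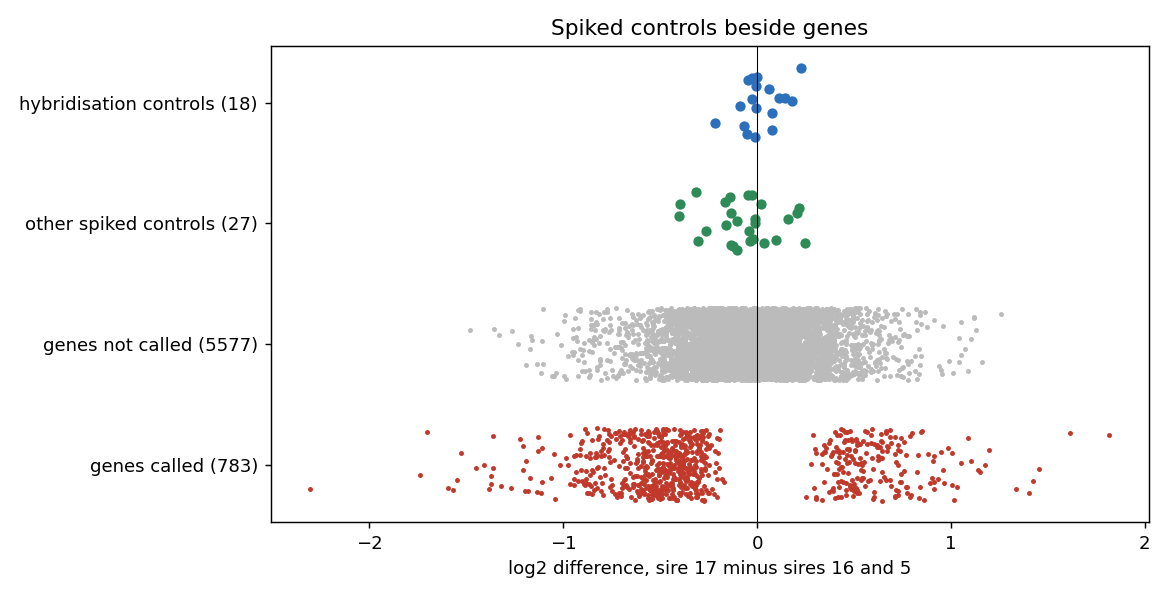
Log2 difference in signal, sire 17 minus sires 16 and 5, for 18 hybridisation controls, 27 other spiked controls, and genes not called or called (one point per probe set or gene; vertical scatter carries no value). The spiked controls lie between -0.40 and 0.25. Called genes reach 1.82 and -2.30, with medians of 0.55 among the higher and -0.49 among the lower.

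Sire 17 progeny differed from the other low muscling progeny in 783 of 6360 genes (12.3%), tested with limma at a Benjamini-Hochberg adjusted p under 0.05. Of these, 214 genes (3.36%) were higher and 569 (8.95%) lower, so 72.7% of calls were lower, while the median log2 difference over all genes was -0.07. The differences were mostly modest: the median was 0.55 among the higher and -0.49 among the lower genes, beside a median standard error (SE) of 0.17, and 17 higher and 33 lower genes differed by at least 1, that is, 2-fold. All 783 had the same sign against sire 16 and against sire 5 taken alone. In 27 genes (0.425%) the 5 sire 17 arrays all lay above the 16 others, and in 81 (1.27%) all lay below, and these 108 (1.7%) were all called.

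The counts moved with the animals left out, and fewer arrays also allow fewer calls. With these 3 left out (71, 85 and 88) and 2 sire 17 arrays kept, 37 genes were higher and 247 lower. Of the 214 higher genes 21 were called again and 207 kept their sign, with a median of 0.38. Of the 569 lower genes 183 were called again and 558 kept their sign, with a median of -0.45. Without progeny 39 and 79 instead, 305 genes were higher and 651 lower, and 173 of the 214 and 395 of the 569 were called again. In all, 13 of the 214 and 110 of the 569 were called under both. Of single arrays, progeny 88 weighed most: 139 genes were higher and 404 lower without it.

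Sires 16 and 5 differed from each other in 2 genes (0.0314%). These were LRRC2, higher by 1.21 in sire 16, and TIMELESS, higher by 1.69 (both adjusted p = 0.0333), and 369 genes had an unadjusted p under 0.05 in that comparison. Sire 17 differed from sire 16 in 517 genes (8.13%; 154 or 2.42% higher, 363 or 5.71% lower) and from sire 5 in 665 (10.5%; 183 or 2.88% higher, 482 or 7.58% lower). Leaving out progeny 71, 85 or 88 lowered the count against sire 16 to 334, 326 and 296. A total of 113 higher and 293 lower genes were called against the mean of both and against each.

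Cytosolic ribosomal proteins, the protein components of the ribosome, were the group most often lower in sire 17. Of 62 detected members 52 were lower and none higher, beside 8.95% lower over all genes, and all 62 differences were below 0. The median was -0.31, against -0.07 over all genes. Levels averaged over the 62 genes were 13.20, 13.29, 13.06, 13.20 and 13.16 (log2 signal) in progeny 39, 71, 79, 85 and 88. In the 16 others they ran from 13.32 to 13.68, so the groups did not overlap.

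RPL7, a protein of the large ribosomal subunit, had signals of 6341.3, 7004.1, 6327.5, 6798.3 and 5711.7 in progeny 39, 71, 79, 85 and 88. The 16 others ranged from 8493.3 to 11453.9 with a median of 9377, above every sire 17 array (log2 difference -0.58, SE 0.06, adjusted p = 3.06e-05). RPS21, of the small subunit, read 9432.1, 9530.3, 9402.1, 9149.9 and 8709.3, with the others from 11731.3 to 16378.9 (median 13332; log2 difference -0.56, SE 0.07, adjusted p = 3.06e-05). The largest difference in the list was that of RPL31, at -0.72 (SE 0.10). In 17 of the 62 members all 5 sire 17 arrays lay below the 16 others, as they did in 1.27% of all genes.

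The lower ribosomal proteins were seen in both subsets of sire 17 animals. A total of 32 members were lower without progeny 71, 85 and 88, all 62 stayed below 0 and the median was -0.36. Without progeny 39 and 79, 39 were lower, 60 were below 0 and the median was -0.30. Of the called members, 21 kept their call in both subsets. RPL7 stood at -0.60 and -0.57, and RPS21 at -0.54 and -0.58. Against sire 16 alone 37 members were lower, and against sire 5 alone 53. After quantile normalization, which gives all arrays the same distribution, 32 were lower and the median was -0.18.

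**Figure D3:**
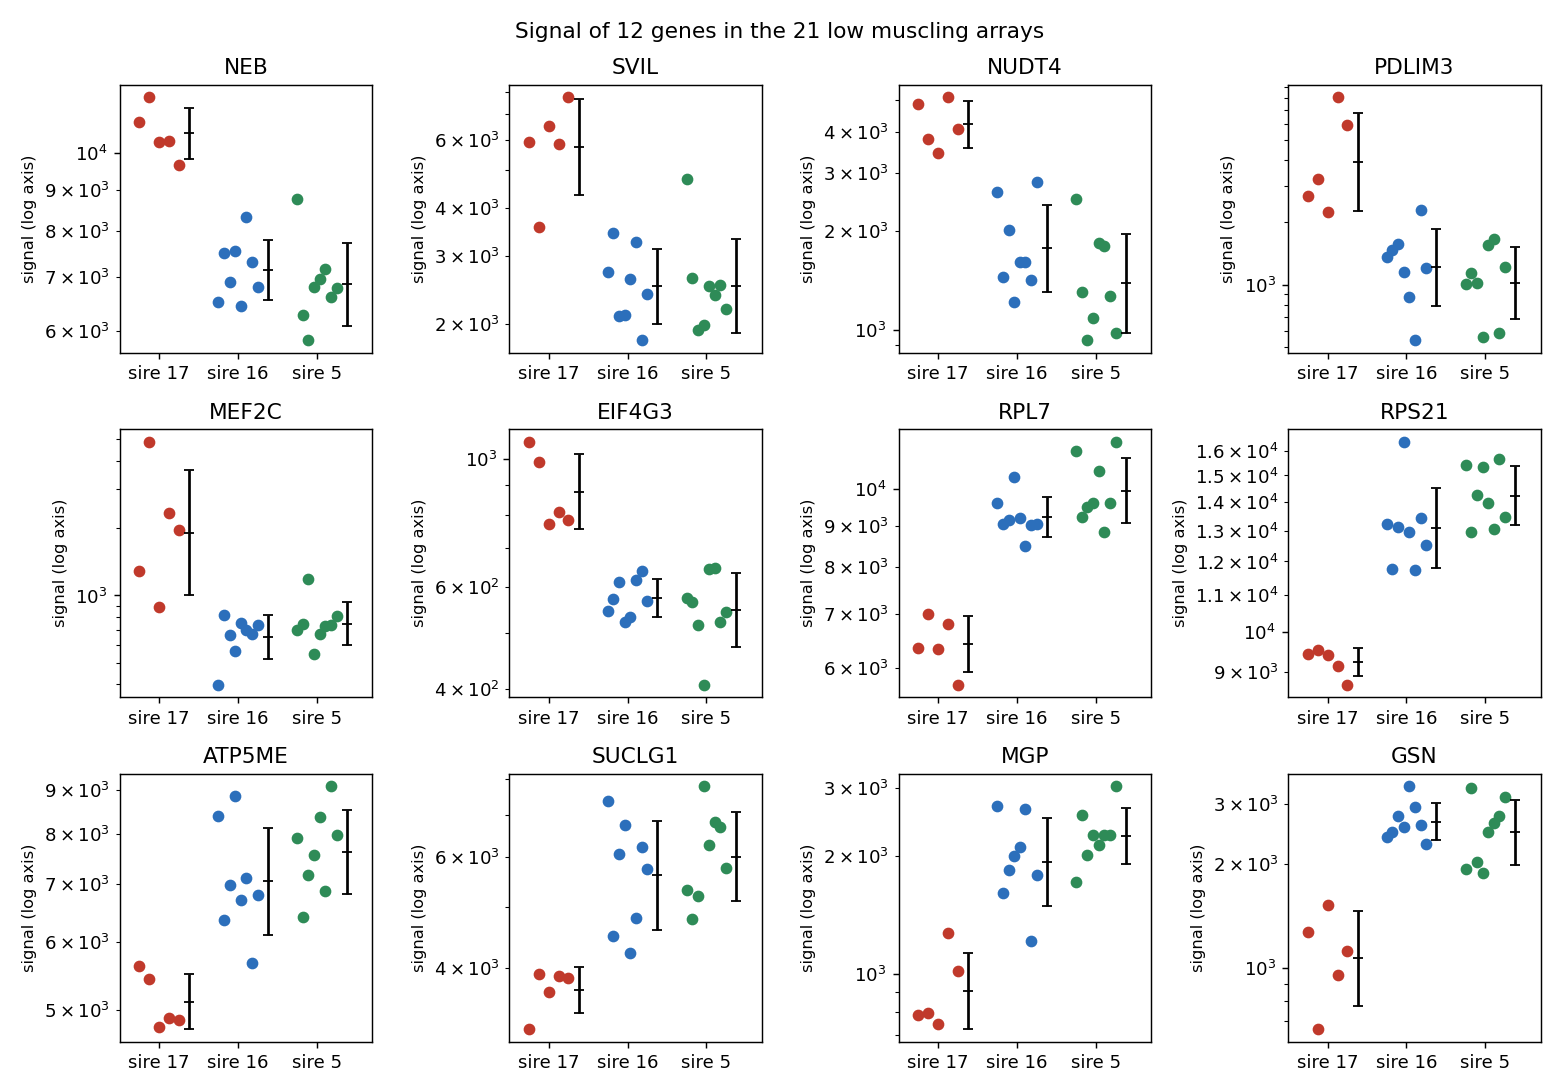
Signal on a log axis of 12 genes in the 21 low muscling arrays, one point per animal in order of progeny number, with the geometric mean and 1 SD of the log2 values (black bars). NEB, NUDT4 and EIF4G3 are higher and RPL7, RPS21, ATP5ME, SUCLG1 and GSN lower in all 5 sire 17 arrays than in any of the 16 others, while PDLIM3 and MEF2C are spread widely within sire 17.

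Other parts of the translation machinery were mixed. Among 39 translation factors 4 were higher and 5 lower (median -0.10), 23.1% called beside 12.3% over all genes. In the 2 subsets 3 were higher and 3 lower, and 6 higher and 6 lower. The lower ones included EEF1A1 (-0.40) and EEF1B2 (-0.49), which deliver amino acids to the ribosome and recycle that factor, and EIF1, BTF3 and EIF1AX. EEF1B2 read 7342.2, 7994.4, 6901.1, 7945 and 7177 in progeny 39, 71, 79, 85 and 88, all below the lowest of the others (8138.3; median 10195). The higher ones were EIF4G3 (0.64), a scaffold for initiation, EIF5 (0.47), EEF2K (0.64), a kinase that slows elongation, and EEF1A2 (0.42). EIF4G3 read 1070.9, 988.2, 771.1, 810.6 and 782.8, all above the highest of the others (647.2; median 566.5), and a second probe set differed by 0.84 (adjusted p = 0.000913). The ribosomal proteins of mitochondria were lower in 12 of 64 and higher in none (median -0.24, beside 8.95% lower over all genes). In the 2 subsets 4 and 11 were lower, and 2 of the 12 kept their call in both. MRPL42 differed by -0.49 and MRPL50 by -0.54 (SE 0.09 and 0.10).

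The respiratory chain was the second large group with lower signals. Of 37 detected subunits of complex I, which takes electrons from NADH, 22 were lower and none higher (median -0.27), beside 8.95% lower and a median of -0.07 over all genes. Of 40 subunits of complexes II to V, which end with ATP synthase, 14 were lower and none higher (median -0.22). All the called members were subunits encoded in the nucleus. Without progeny 71, 85 and 88 the counts were 11 and 6, without progeny 39 and 79 they were 10 and 14, and after quantile normalization 15 and 9, with no higher member in any of these. Largely different members made up the counts of the 2 subsets. Only 3 of the 22 in complex I and 5 of the 14 in complexes II to V kept their call in both.

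NDUFC2, a complex I subunit, had signals of 3754.2, 4672.4, 3775.8, 4348.8 and 4087.8 in progeny 39, 71, 79, 85 and 88, and of 4527.1 to 6814.6 in the others (median 5616). Only progeny 71 reached the range of the other families (log2 difference -0.46, SE 0.08, adjusted p = 0.000626). ATP5ME, a subunit of ATP synthase, read 5631.2, 5444, 4779.3, 4901.8 and 4876.2, below all 16 others (5680.1 to 9102.8, median 7155; log2 difference -0.52, SE 0.09, adjusted p = 0.000465). ATP5MF, another subunit, lay at 5346.5 to 8497.9 against 8643.5 to 11809.8, again without overlap. NDUFA7 differed by -0.62 (SE 0.12), its adjusted p rising to 0.0784 without progeny 71, 85 and 88.

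Enzymes that feed the chain were mostly not called, beside 12.3% called over all genes. In the tricarboxylic acid cycle 1 of 17 was lower, SUCLG1, which makes succinate from succinyl-CoA. It read 3194, 3913.2, 3667.9, 3879.1 and 3860.4 in progeny 39, 71, 79, 85 and 88, below all others (4226 to 7786.5; log2 difference -0.65, SE 0.12, adjusted p = 0.000733). IDH2 was at -0.35 (adjusted p = 0.127). In fatty acid oxidation 1 of 26 was lower, ECI2 (-0.55), an enoyl-CoA isomerase, and PPARD, a regulator of oxidation genes, was at -0.44 (adjusted p = 0.0821). No member was called among 27 genes of glycolysis and glycogen (median -0.04; ENO1 -0.30, PGAM2 -0.16) or 10 of the phosphagen enzymes (CKB -0.48, AK4 0.56), which supply ATP without oxygen.

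**Figure D4:**
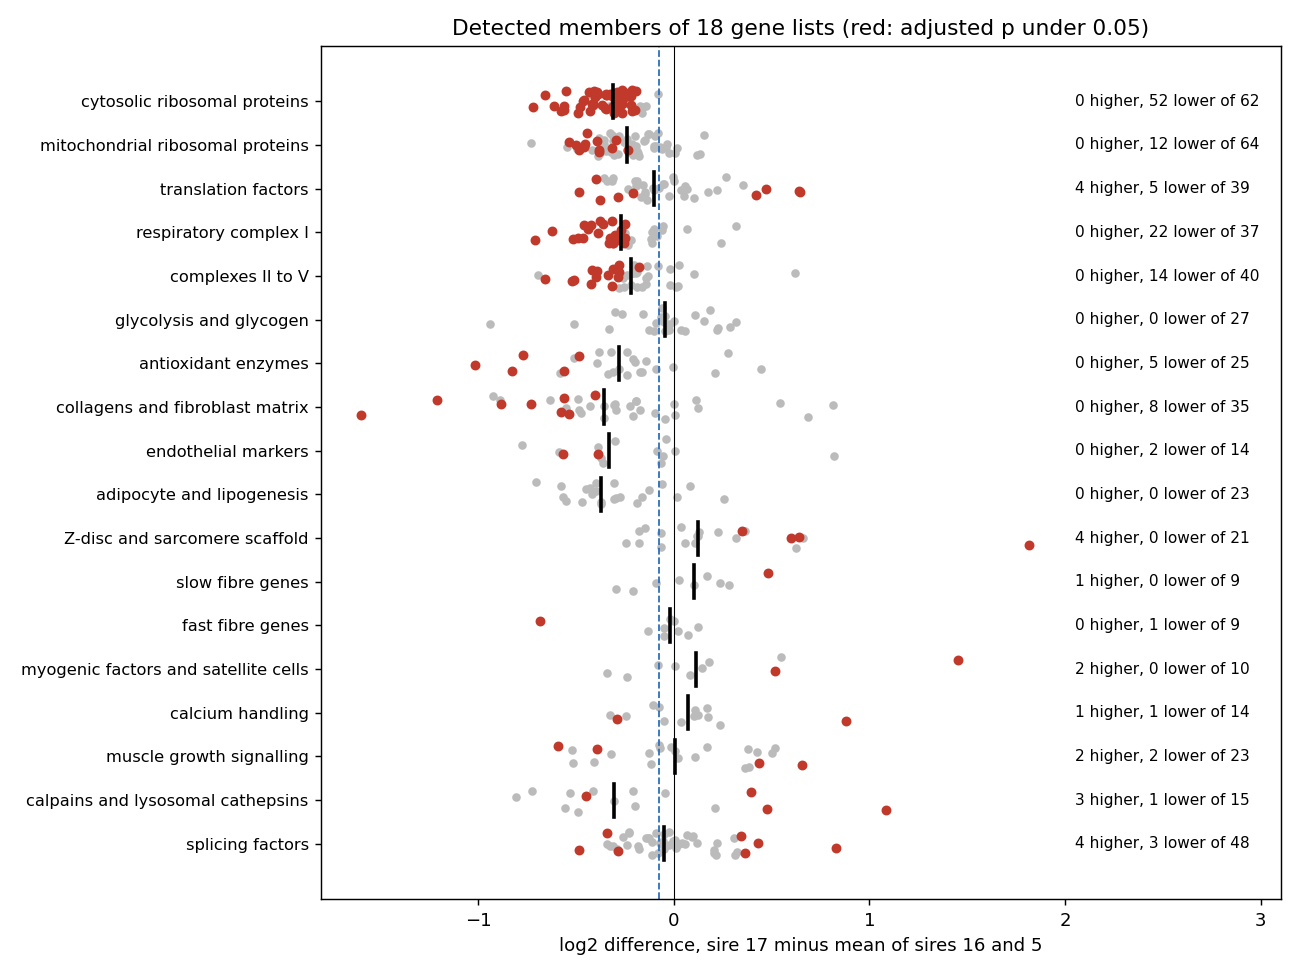
Log2 difference, sire 17 minus the mean of sires 16 and 5, of each detected gene in 18 lists (points; red where adjusted p is under 0.05), with the list median (black bar) and the median of all genes (dashed line, -0.07). Ribosomal and respiratory chain genes lie to the left of that line in most cases, and the called Z-disc genes to the right.

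Genes of the sarcomere scaffold were higher where they were called. Of 21 detected genes of the Z-disc and sarcomere scaffold 4 were higher and none lower (median 0.12), beside 3.36% higher over all genes. NEB, nebulin, which runs along the thin filament, read 10936.9, 11751.6, 10332.3, 10342.6 and 9666.8 in progeny 39, 71, 79, 85 and 88, all above the highest of the others (8770.1; median 6856). Its log2 difference was 0.60 (SE 0.08, adjusted p = 6.62e-05), 0.60 without progeny 71, 85 and 88 and 0.59 without 39 and 79. The other NEB probe sets differed by 0.95 and 0.72 (adjusted p = 2.36e-05 and 0.00246). MYPN, myopalladin of the Z-disc, differed by 0.64 and MYBPC1, slow myosin binding protein C, by 0.35. In the subset without progeny 71, 85 and 88 only NEB of the 4 was called, and MYPN (adjusted p = 0.0569 and 0.0984) was called in neither subset. Without progeny 39 and 79, 3 of the list were higher and 1 lower. MYOZ1, also of the Z-disc, was at -0.13 (adjusted p = 0.215).

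PDLIM3, which binds alpha-actinin at the Z-disc, had the largest higher difference of any gene, 1.82 (SE 0.30, adjusted p = 0.000316). Its signals were 2679.3, 3257.9, 2245.4, 8078.1 and 5889.6 in progeny 39, 71, 79, 85 and 88, and 537.6 to 2291.2 in the others (median 1179). Progeny 85 and 88 were far above the rest and progeny 79 fell within the other families' range. Without progeny 71, 85 and 88 the difference was 1.14 (adjusted p = 0.106), and a second, dimmer PDLIM3 probe set was at -0.23 (adjusted p = 0.568), so the 2 probe sets did not move together.

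Myogenic regulators of the MEF2 family, which switch on contractile genes, were the called members of the myogenic and satellite cell list (2 of 10 higher, none lower). These were 20% of the list, beside 12.3% called over all genes. MEF2C read 1285, 4876, 889.8, 2333.1 and 1956.8 in progeny 39, 71, 79, 85 and 88, against 397.7 to 1189.5 in the others (median 716). It was highest in progeny 71 and inside the others' range in progeny 79 (log2 difference 1.45, SE 0.24, adjusted p = 0.000403; 0.62, adjusted p = 0.141 without progeny 71, 85 and 88). MEF2A differed by 0.52 (adjusted p = 0.00623), but its second probe set was at 0.43 and not called (adjusted p = 0.594). The mean over all MEF2A probe sets was -0.04, but it includes 1 below the detection level at -1.06 (mean signals of 5.5 and 14.3).

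Fibre type genes were nearly all uncalled. Of 9 slow fibre genes 1 was higher, MYH7, the slow myosin heavy chain (0.48, SE 0.16, adjusted p = 0.0426). It read 26478.4, 18803.7, 20835.3, 18648.1 and 17434.5 in progeny 39, 71, 79, 85 and 88, and 9901 to 21592.6 in the others (median 14234), so the groups overlapped. The call was lost in each subset (adjusted p = 0.102 and 0.26). A second detected MYH7 probe set was at 0.30 (adjusted p = 0.319). The mean over all MYH7 probe sets was -0.07, but it includes 1 below the detection level at -0.99 (mean signals of 14.2 and 23.6). Of 9 fast fibre genes 1 was lower, TPM1, a tropomyosin (-0.68), and TPM3 was at -0.21 (adjusted p = 0.349). The TPM1 call was lost without progeny 71, 85 and 88 (adjusted p = 0.498). Each fibre list had 11.1% called, beside 12.3% over all genes.

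In calcium handling (14 genes) 1 was higher and 1 lower, 14.3% called beside 12.3% over all genes. PLN, phospholamban, the inhibitor of the calcium pump of the sarcoplasmic reticulum, read 3132.8, 7126.1, 2861.3, 4768.3 and 2973 in progeny 39, 71, 79, 85 and 88 against 1414.7 to 3555.7 (log2 difference 0.88, SE 0.22, adjusted p = 0.0088). Only progeny 71 and 85 exceeded the others' range, yet both further PLN probe sets were also higher (0.80 and 0.78). FKBP1A, which stabilises the calcium release channel, differed by -0.29, and by -0.02 without progeny 71, 85 and 88.

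Outside the muscle lists, 3 of the 12 largest higher differences were called in both subsets: NUDT4, CNKSR2 and SVIL. NUDT4, which hydrolyses diphosphoinositol phosphates, read 4847.8, 3812.5, 3445.2, 5092.4 and 4075.4 in progeny 39, 71, 79, 85 and 88, all above the others (931 to 2811.4, median 1529; log2 difference 1.43, SE 0.20, adjusted p = 0.000102). A second detected NUDT4 probe set overlapped, at 1056.1 to 2028 against 781.4 to 1981.8, and was not called (0.495, adjusted p = 0.0593). CNKSR2, a scaffold of Ras signalling, read 388.3, 544.5, 411.6, 466.4 and 448.2, again above all others (79.1 to 274.5, median 170.1; log2 difference 1.40, SE 0.23). SVIL, supervillin, an actin and myosin binding protein, differed by 1.20 (SE 0.18), with only progeny 71 inside the others' range.

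The remaining members of the 12 largest higher differences were not called in both subsets. BRAF, a kinase of the MAP kinase pathway, differed by 1.61, with 259 and 232 in progeny 71 and 85 but 65.3 and 64.7 in progeny 39 and 79, inside the others' 12.3 to 70.5. MPPED2 (1.34), PRKG1 (1.18), the cGMP-dependent kinase, BMPR2 (1.15), a receptor of bone morphogenetic proteins, RNF144B (1.14), TNRC6B (1.10), a partner of Argonaute in microRNA silencing, and CTSS (1.09) completed them. None of these 6 nor BRAF was called without progeny 71, 85 and 88, and RNF144B was at 0.17.

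Collagens and fibroblast matrix genes, the connective tissue of muscle, were lower where they were called. Of 35 detected collagens and fibroblast matrix genes 8 were lower and none higher (median -0.36), beside 8.95% lower over all genes: FMOD, MGP, MMP2, THBS4, LUM, FBLN1, TIMP1 and DCN. MGP, matrix Gla protein, an inhibitor of calcification, read 787.6, 794.2, 745.6, 1271.4 and 1015.9 in progeny 39, 71, 79, 85 and 88, against 1216.3 to 3025.2 in the others (median 2124). Only progeny 85 reached their range (log2 difference -1.21, SE 0.15, adjusted p = 6.62e-05; -1.45 and -1.05 in the 2 subsets, both called). MMP2, a gelatinase, differed by -0.88, LUM and DCN, small proteoglycans of collagen fibrils, by -0.58 and -0.40, and THBS4, a thrombospondin of tendon and muscle, by -0.73. Only MGP kept its call in both subsets. MMP2, FBLN1 and TIMP1 lost it without progeny 71, 85 and 88 (adjusted p = 0.155, 0.55 and 0.698; TIMP1 moved from -0.53 to -0.21), and THBS4, LUM, DCN and FMOD without 39 and 79 (adjusted p = 0.153, 0.186, 0.329 and 0.331). The list had 5 and 7 lower members in these subsets. FMOD, fibromodulin, differed by -1.60 (SE 0.49), but at signals of 4.1 to 65.7 in sire 17, near or below the detection level, against 12.2 to 120.4. SERPINH1, the collagen chaperone, listed with the ER chaperones, differed by -0.90 (SE 0.22), and by -0.42 (adjusted p = 0.488) without progeny 71, 85 and 88.

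The summed signal of the 41 matrix genes on the array was 17597 to 26193 in sire 17 and 18505 to 40209 in the others, so the ranges overlapped. Summed endothelial markers were 9602 to 12558 against 10717 to 19017, adipocyte markers 4601 to 6580 against 5373 to 16334, and leukocyte markers 3125 to 5271 against 3544 to 7372. Those of smooth muscle and pericytes were 26361 to 39218 against 28329 to 36422, of Schwann cells 11416 to 29562 against 8282 to 25750, of blood cells 491 to 639 against 428 to 1194, and of myogenic cells 11589 to 17723 against 6713 to 17524. All 8 pairs of ranges overlapped. In whole muscle, fewer cells of a type and less RNA per cell cannot be told apart, and the part of these cell types in the gene differences was not tested. Of 14 endothelial genes 2 were lower, PECAM1 (-0.57), an adhesion molecule of vessel lining, and CAV1 (-0.39), the coat protein of caveolae. These were 14.3% of the list, beside 12.3% called over all genes. Without progeny 71, 85 and 88 neither was called (adjusted p = 0.233 and 0.382). Of 22 leukocyte genes 1 was lower, LAPTM5 (-0.57), and ITGB2 was at -0.61 (adjusted p = 0.0628). The LAPTM5 call was lost without progeny 71, 85 and 88 (adjusted p = 0.208). Of 13 smooth muscle and pericyte genes 1 was lower, MYH11 (-0.43), with CNN1 at -0.49 (adjusted p = 0.0785). The MYH11 call was lost in each subset (adjusted p = 0.348 and 0.0709). None was called among 23 adipocyte and lipogenesis genes (median -0.37; CFD -0.58, ELOVL5 -0.37), 12 of cholesterol synthesis (MVD -0.41, HMGCS1 0.38), 5 of blood cells (HBA -0.46, HBE1 0.41) or 6 of Schwann cells and nerve (S100B 0.31, UCHL1 -0.36).

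Antioxidant enzymes were lower in 5 of 25 and higher in none (median -0.28), beside 8.95% lower over all genes. These were GPX3 (-1.02), GPX1 (-0.83) and GPX4 (-0.56), glutathione peroxidases, SOD2 (-0.77), the mitochondrial superoxide dismutase, and PRDX4 (-0.48). GPX4 read 1604.6, 1258.9, 1289.3, 1233.6 and 1367.3 in progeny 39, 71, 79, 85 and 88 against 1536.3 to 2447.1 (median 1982), with only progeny 39 in that range (SE 0.09, adjusted p = 0.000321). SOD2 read 411.3, 425.4, 355.2, 368.9 and 223 against 382.5 to 769.7 (SE 0.16, adjusted p = 0.00205), and progeny 39 and 71 overlapped. The mean level of the list was 9.29 to 9.39 (log2 signal) in sire 17 and 9.44 to 9.93 in the others, without overlap. Without progeny 71, 85 and 88 none of these 5 was called (adjusted p = 0.0555 for PRDX4, 0.0568 for GPX4, 0.0923 for SOD2, 0.126 for GPX1 and 0.532 for GPX3, which was at -0.44), while 2 other members were lower and the list median was -0.30, and 6 were lower without 39 and 79.

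Genes that control muscle mass were mostly not called. Of 23 detected genes of muscle growth signalling 2 were higher and 2 lower (median 0.01), 17.4% beside 12.3% over all genes, and none was called without progeny 71, 85 and 88, against 2 higher and 3 lower without 39 and 79. RPS6KB1, the S6 kinase that acts downstream of mTOR, read 447.3, 724.9, 480.6, 773 and 734.6 in progeny 39, 71, 79, 85 and 88, and 295 to 473.7 in the others (median 398). Progeny 39 lay inside and 79 just above the others' range (log2 difference 0.66, SE 0.13, adjusted p = 0.00179; 0.25, adjusted p = 0.435 without progeny 71, 85 and 88). A second detected RPS6KB1 probe set was at 0.21 and not called (adjusted p = 0.56). SMAD4, the shared mediator of TGF-beta signals, differed by 0.43, and by 0.19 (adjusted p = 0.53) without progeny 71, 85 and 88. FST, follistatin, which binds and blocks myostatin, read 175.7, 128.8, 200.6, 152.1 and 160 against 179.2 to 362.2 (log2 difference -0.59, SE 0.15, adjusted p = 0.00916), and AKT1 by -0.39, with the AKT1 call lost in each subset (adjusted p = 0.107 and 0.223). MSTN, myostatin, the inhibitor of muscle growth, read 38, 112.7, 290.6, 163 and 277.9 in sire 17 and 47.6 to 174.1 in the others. It was the lowest of all 21 in progeny 39 and the highest in progeny 79, and was not called (0.50, SE 0.36, adjusted p = 0.402; second probe set 0.19).

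Protein breakdown gave single calls. Of 15 calpains and lysosomal cathepsins 3 were higher, CTSS (cathepsin S), CAPN3 (the muscle calpain, 0.39) and CST3 (cystatin C, an inhibitor of cathepsins, 0.48), and 1 was lower, CAPNS1 (-0.45). These were 26.7% of the list, beside 12.3% called over all genes. CTSS read 444.9, 141, 398.2, 910.6 and 1051.3 in progeny 39, 71, 79, 85 and 88 against 62.9 to 473.2, so that 3 of 5 arrays overlapped the others (SE 0.35, adjusted p = 0.0446), and the call was lost in each subset. No member of the list was called without progeny 71, 85 and 88, and 1 was higher and 1 lower without 39 and 79. CST3 and CAPNS1 were at 0.15 and 0.05 without progeny 71, 85 and 88, and a second CST3 probe set was at -0.47 (adjusted p = 0.0818). Of 32 proteasome subunits 1 was higher (PSMD11, 0.37) and 3 lower: PSMB6 (-0.54), PSMB5 (-0.47) and PSMA6 (-0.20). These were 12.5% of the list, near the 12.3% over all genes. PSMD11 (0.17, adjusted p = 0.536) and PSMB5 (-0.20, adjusted p = 0.288) lost their calls without progeny 71, 85 and 88, where 3 members were lower, and 1 was higher and 3 lower without 39 and 79. PSMB6, a catalytic subunit, read 3715.3 to 5243.9, below all others (5336 to 7474.4). In the FOXO atrophy programme 1 of 20 was higher, ZBTB16 (0.91), with SESN1 at -0.39 (adjusted p = 0.278). The ZBTB16 call was lost in each subset (adjusted p = 0.243 and 0.0727).

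The largest lower differences occurred mostly at low signals. BRB, the brain ribonuclease of cattle, differed by -2.30 (SE 0.45, adjusted p = 0.00167), with 42.9, 69.9, 12.8, 5 and 64.2 in progeny 39, 71, 79, 85 and 88 against 52.7 to 318.1. SNHG12 (-1.74), SHFL (-1.70), RASSF1 (-1.57), ISLR (-1.53), C23H6orf226 (-1.45), SPA17 (-1.41), SERPING1 (-1.39), the C1 inhibitor of complement, and ROGDI (-1.37) all had mean signals of 36.5 to 77.6 in sire 17, and of 93.9 to 198.7 in the others. BOLA-N (-1.55), a histocompatibility gene of cattle with close relatives that other probe sets of the array name together with it, had means of 144.2 and 355.7, and which of these copies the probe set read in sheep was not tested. In none of these 10 nor in FMOD did the arrays separate fully. The twelfth, CSN2 (-1.37), was at 0.26 (adjusted p = 0.761) without progeny 71, 85 and 88.

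Genes without overlap between the groups gave clearer lower and higher values, and those named here were chosen after their values were seen, from among the smallest p-values outside the lists. GSN, gelsolin, which severs actin filaments, read 1274.7, 662.1, 1520, 955.2 and 1121.2 in progeny 39, 71, 79, 85 and 88, below all others (1888.1 to 3374.2, median 2583; log2 difference -1.27, SE 0.15, adjusted p = 3.06e-05). AKR1B1, aldose reductase, read 553.8 to 1110.5 against 1361.2 to 2900.2 (-1.11), and CD9, a tetraspanin, 669.7 to 874.6 against 887.1 to 1945.7 (-0.87). DYRK1A, a protein kinase, read 3134, 3373.6, 2683.1, 2871.4 and 3259.6, above all others (1426.7 to 2223.8, median 1889; log2 difference 0.73, SE 0.09, adjusted p = 6.94e-05), and SZRD1 755.1 to 1402.8 against 409.5 to 623.6 (1.02). All 5 were called in both subsets of sire 17 animals, which adds no separate support because they were chosen from these same arrays.

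Immune, stress and RNA processing lists had from 0 to 14.6% of their members called, beside 12.3% over all genes. Among 19 genes of the immunoproteasome and antigen presentation CTSS was higher and B2M, beta-2-microglobulin, lower (-0.40). The B2M call was lost in each subset (adjusted p = 0.117 and 0.105). Another detected B2M probe set was at -0.05 (adjusted p = 0.896), while a dimmer B2M probe set was lower (-0.66, adjusted p = 0.00459). Among 14 interferon response genes none was called (IFI27 -0.73, STAT2 0.52). Of 25 immediate early genes 1 was lower, NR4A1 (-0.76), with KLF4 at the same difference and not called (adjusted p = 0.0536). The NR4A1 call was lost without progeny 71, 85 and 88 (adjusted p = 0.296). Among 25 heat shock proteins HSPA4 was higher (0.71) and HSPE1 lower (-0.27). HSPA4 lost its call without progeny 39 and 79 (adjusted p = 0.113), and HSPE1 in each subset (adjusted p = 0.0927 and 0.247). Among 21 ER chaperones SEL1L was higher (0.46) and SERPINH1 and HERPUD1 lower (14.3% of the list). SEL1L lost its call without progeny 71, 85 and 88 (adjusted p = 0.581), and HERPUD1 in each subset (adjusted p = 0.252 and 0.0707). Of 48 splicing factors 4 were higher, including SRRM2 (0.83), and 3 lower, including SNRPG (-0.49), whose signals did not overlap with those of the others (14.6% called, beside 12.3% over all genes). In the 2 subsets none and 8 splicing factors were higher and 2 and 4 lower. Of 13 metallothioneins and acute phase genes 1 was lower, SAA3 (-0.84, FTL -0.26), and its call was lost without progeny 71, 85 and 88 (adjusted p = 0.255). None of 7 circadian clock genes was called on its brightest probe set (HLF 0.64, RORA 0.25). Other detected RORA probe sets were at 0.48 (adjusted p = 0.025) and 0.38 (adjusted p = 0.557). Of 5 genes listed as sex-linked 1 was lower, RPS4Y1 (-0.25), whose other detected probe set was at 0.19, and KDM6A was at 0.40 (adjusted p = 0.156). The RPS4Y1 call was lost in each subset (adjusted p = 0.146 and 0.0655). Its signal was 9572.3 and 9639.3 in progeny 39 and 71, with low XIST, and 8256.8, 9017.2 and 8851.5 in progeny 79, 85 and 88, with high XIST. The probe set was thus bright at both XIST levels, and which transcript it reads was not tested.

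Against the high muscling families the sire 17 arrays again fell into 2 sets. In a fit of all 40 arrays, sire 17 differed from sire 11 in 39 genes (0.613%), from sire 7 in 205 (3.22%) and from sire 2 in 223 (3.51%). In the same fit it differed from sire 16 in 656 (10.3%) and from sire 5 in 802 (12.6%). These comparisons share the sire 17 arrays and differ in family size (4 to 8), so the counts were not tested against each other. They turned with the arrays kept. With progeny 39 and 79 alone, sire 17 differed from sire 11 in 623 genes (9.8%), from sire 7 in 38 (0.597%) and from sire 2 in none (638 genes at an unadjusted p under 0.05 in limma), and from sires 16 and 5 in 201 (3.16%) and 388 (6.1%). With progeny 71, 85 and 88 alone, it differed from sire 11 in no gene (497 at an unadjusted p under 0.05 in limma), but from sire 2 in 675 (10.6%), from sire 7 in 579 (9.1%), and from sires 16 and 5 in 817 (12.8%) and 908 (14.3%). These 3 animals are those with the low CSN2 signal of sire 11.

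Sire 11 differed from sires 2 and 7, a comparison with no array in common with sire 17 against sires 16 and 5, in 505 higher (7.94%) and 773 lower genes (12.2%). Of the 214 genes higher in sire 17, 113 were among the 505 (52.8% of the former, 22.4% of the latter), and of the 569 lower, 131 were among the 773 (23% and 16.9%). A further 24 genes lower in sire 17 were higher in sire 11, and no gene was higher in sire 17 and lower in sire 11. This overlap also moved with the animals. Without progeny 71, 85 and 88, 7 of the 37 higher genes were among the 505 (18.9% and 1.39%) and 9 of the 247 lower among the 773 (3.64% and 1.16%), while 33 lower genes were higher in sire 11 and 8 higher genes lower in it. Without progeny 39 and 79 the shared counts were 189 of 305 higher (62% and 37.4%) and 276 of 651 lower (42.4% and 35.7%).

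The levels of the lists over all 6 families placed sires 16 and 5, rather than sire 17, apart for the ribosome. Median levels of the 62 ribosomal proteins were 13.2 in sire 17, 13.24 in sire 11, 13.19 in sire 2 and 13.21 in sire 7, but 13.46 in sire 16 and 13.59 in sire 5 (log2 signal). For complex I they were 11.72 in sire 17 and 11.69 to 11.76 in the high families, against 11.94 and 11.97 in sires 16 and 5. For the antioxidant list sire 17 (9.37) lay next to sire 11 (9.3), below 9.57 to 9.71 in the other 4 families. Matrix genes had medians of 8.02 in sire 17, 7.75 to 7.98 in the high families and 8.43 and 8.45 in sires 16 and 5.

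**Figure D5:**
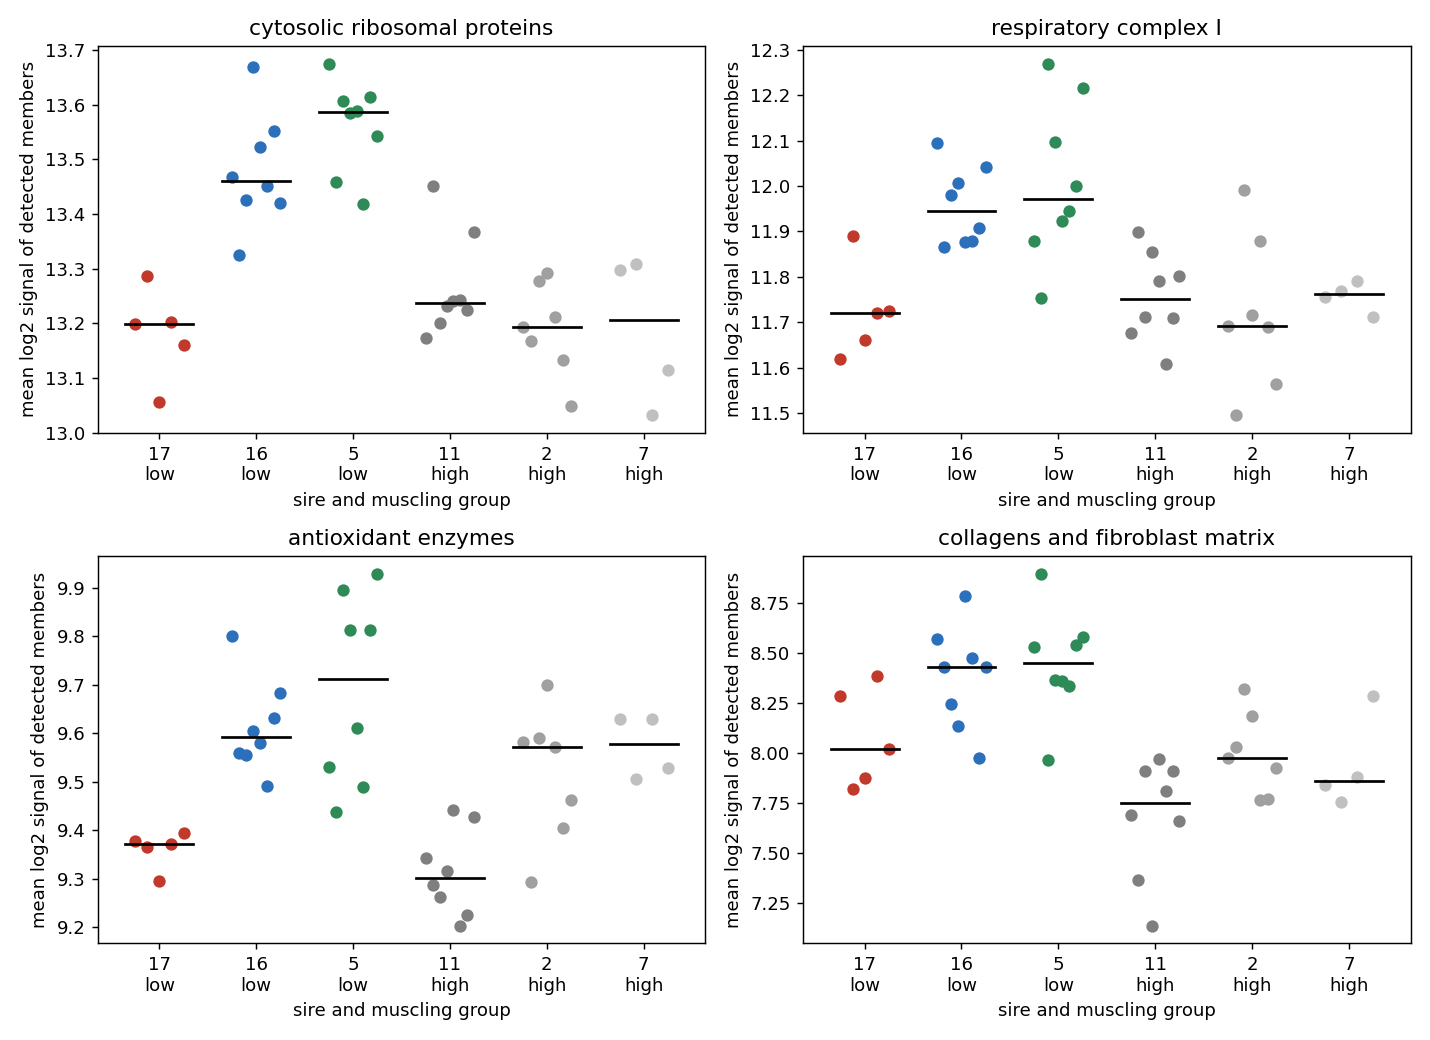
Mean log2 signal over the detected members of 4 lists in each of the 40 arrays, by sire and muscling group (one point per animal, bar at the family median). Sire 17 lies with the 3 high muscling families for ribosomal proteins (median 13.2) and complex I (11.72), and next to sire 11 for antioxidant enzymes.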

How the data were processed

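Muscle RNA of 40 sheep was hybridised by the authors, 1 animal per array, to the Affymetrix GeneChip Bovine Genome array. The deposited values are MAS5 signals (intensity, linear scale), scaled to a trimmed mean of 200 per array. The MAS5 version is not given in the sources used here, and Present flags were not used. No counts underlie signals, so the number of arrays limits precision. Scaling removes any difference in total RNA.

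Of 24016 probe sets other than controls, 13292 had 1 gene symbol in the platform annotation (2 or more in 86, none in 10638; bovine names, which can be old). Each of 9155 genes was read from its brightest probe set, averaged over the 40 arrays. Cross-species hybridisation can lower the signal of single probe sets. Groups came from the sire and EBV in the labels. Log2 signals of the 21 low arrays were fitted with limma 3.58.1 in R 4.3.3 with 1 mean per sire (empirical Bayes with trend), tested on simulated data, and p-values were adjusted by Benjamini-Hochberg over 6360 genes. Spiked controls were compared by two-sided exact permutation over 20349 splits. Named genes were the 12 largest called differences in each direction, the 2 smallest p-values of each of 36 lists, and MSTN. Lists are described by counts and medians, without a test. Although the rule for the members uses labels alone, the members and lists were chosen with earlier results of these data known. Alternatives were other normalizations, floors, filters, probe set rules, fits and arrays left out.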

Additional observations from a re-analysis of the deposited data

Results flagged for a closer look

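Single arrays far from the rest of their family were found for 29 of 282 combinations of the 94 named genes and 3 families, by the gap to the nearest array over the range (Dixon's test). Chance alone gives about 1 in 20. Within sire 17 there were 6. Progeny 88 was lowest for SOD2 (223) and highest for ELOVL5 (446.7) and STAT2 (109.3). Progeny 71 was lowest for KLF4 (658.7) and highest for HMGCS1 (677.9), and progeny 85 was highest for SHFL (128.4). Within sire 16, progeny 65 was lowest for SNHG12 (20.6), FMOD (12.2), SEL1L (672.3), CAV1 (3260.5) and FTL (2779.3), and highest for CST3 (4881.4), MEF2A (2179.9) and ELOVL5 (1016.8). Progeny 2 was lowest for SPA17 (26.7) and MVD (247.7), and progeny 43 highest for RPS21 (16379). Within sire 5, progeny 32 was lowest for FMOD (25.1), ITGB2 (152.6) and PECAM1 (1032.6), and highest for MYOZ1 (30889) and MVD (611.3). Progeny 11 was highest for SVIL (4748.2), PRKG1 (472.3) and CKB (332.5). Progeny 94 was lowest for CSN2 (7254.1) and ELOVL5 (387.8), progeny 30 lowest for AK4 (28), and progeny 80 highest for BOLA-N (890.2).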

How the results depend on the processing

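No paired analysis was possible because the progeny numbers are those of single animals and no number is shared between families. Under the planned settings the higher count ran from 191 to 280 and the lower from 476 to 675, with 69.4% to 75.4% of calls lower and the median of all genes moved by less than 0.1. Leaving out 1 array gave 139 to 258 higher and 404 to 614 lower genes, 296 to 603 against sire 16, 472 to 717 against sire 5, and 0 to 3 for sire 16 against sire 5. Spiked controls, recomputed without each sire 17 array alone, gave 0 to 1 calls. Without progeny 71, 85 and 88 the counts were 37 higher, 247 lower, 132 against sire 16, 294 against sire 5 and 1 for sire 16 against sire 5. Without progeny 39 and 79, 784 were called against sire 16 and 1 between sires 16 and 5. Array weights gave 799 against sire 16. For sire 16 against sire 5, signals of at least 200 gave 1, the mean over all probe sets 0, the hybridisation covariate 0 and the XIST covariate 1. Median centring left 0 spiked controls called. The sign turned for MYH7 (-0.0698) and MEF2A (-0.0382) with the mean over all probe sets, and for CSN2 (0.26), MYOZ1 (0.0302) and CAPNS1 (0.0485) without progeny 71, 85 and 88. The MYH7 and MEF2A means each include a probe set below the detection level that was lower in sire 17, while their detected probe sets were higher. Of the 67 called named genes, 898 of 989 tests under other settings and 1297 of 1407 with 1 array left out kept the call and its sign. Where calls were lost the cause was not tested. Signals near the detection level limit the largest lower differences.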

Other observations

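Of the 27 genes higher in all 5 sire 17 arrays, 6 are given here that were chosen after their values were seen. No list of like genes was counted or tested. These were NCOA1 (log2 difference 0.95, SE 0.14), a coactivator of nuclear receptors, CUX1 (0.80) and ZBTB18 (0.84), DNA-binding repressors, DNMT3A (0.71), a DNA methyltransferase, ASH1L (0.69), a histone methyltransferase, and CREBBP (0.50), a histone acetyltransferase. NCOA1 read 579.4, 952.3, 504.9, 846.7 and 1167.1 in progeny 39, 71, 79, 85 and 88, and 345.4 to 481 in the others. Without progeny 71, 85 and 88 ASH1L was called (0.73, adjusted p = 0.0139), while NCOA1 was at 0.43 (adjusted p = 0.0941), CUX1 at 0.54 (adjusted p = 0.0912), DNMT3A at 0.44 (adjusted p = 0.191) and CREBBP at 0.39 (adjusted p = 0.0859).

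Of the 81 genes lower in all 5, 3 are given that were chosen in the same way, again without a list. PPIB, cyclophilin B of the endoplasmic reticulum, read 1473.8, 1260.8, 1304.5, 1556.3 and 1296.9 in progeny 39, 71, 79, 85 and 88, and 1741.4 to 2943.3 in the others (log2 difference -0.76, SE 0.11). SERPINF1, an inhibitor of vessel growth, differed by -0.91 and SELENOP, the plasma selenium carrier, by -0.61. These 3 were called in both subsets of sire 17 animals, which adds no separate support for genes chosen because no array overlapped.

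Other probe sets of the called genes gave a mixed record. For 164 called genes there were 204 further detected probe sets, of which 159 had the same sign (49 of them called) and 45 the opposite sign (1 called).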
